A study of Mus musculus with 6 samples.

Results

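Keratin genes were followed through ATAC-seq peak lists of mouse pancreatic β-cells that carry or lack Chd4. The genes were taken by name: every protein-coding gene of the RefSeq annotation whose symbol is Krt followed by a number, without the keratin-associated Krtap genes. This gave 53 of 21883 protein-coding genes, 27 on chromosome 11 and 26 on chromosome 15. Each gene was given a territory of its span plus 10 kb on either side. Overlapping peaks of the 6 libraries were joined into regions, and 110 of 156745 regions fell in keratin territories, each counted once even where territories overlap. The regions were selected on the peak calls themselves, so their counts are descriptions and carry no test.

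ATAC-seq marks open chromatin with the transposase Tn5, which cuts accessible DNA and inserts sequencing adapters. The cells were Tomato+ mature β-cells, sorted by flow cytometry from dispersed islets of mice treated with tamoxifen. There were 3 libraries of the control genotype, and 3 of the knockout genotype, labelled Chd4KO and described in the series' design as Chd4Db mice. Chd4 encodes an ATPase of the NuRD complex, which moves nucleosomes and removes acetyl groups from histones. Tamoxifen and the Tomato sort were common to both groups. The promoter that drives the recombinase, the alleles of the control mice, the age of the animals and whether a library came from 1 animal or several are not stated in the labels. P-values therefore measure the spread between these libraries, which may be technical.

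Keratins form the intermediate filaments of epithelial cells. A filament needs an acidic type I and a basic type II keratin, and in the mouse the type I genes lie together on chromosome 11 and the type II genes on chromosome 15, where type I Krt18 lies beside its type II partner Krt8. Krt8 and Krt18 are the pair of simple epithelia, Krt7 and Krt19 are known from pancreatic ducts, Krt5 and Krt14 from basal keratinocytes, and other pairs from the suprabasal epidermis, the sheath of the hair follicle, and hair and nail.

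Few of the keratin promoters that could be examined were open in these cells. RefSeq promoter windows, 250 bases before to 50 bases after the start of a transcript on GRCm38.p6, were matched for 36 of the 53 genes, in 37 windows. A peak overlapped the window in all 6 libraries at Krt7, Krt8, Krt18 and Krt77, which is 10.8% of the keratin windows against 58.0% of 21262 windows over all genes. Another 31 windows, of 30 genes, had no peak in any library. Krt27 had a peak there in control libraries 2 and 3 and knockout libraries 1 and 2, and Krt71 in knockout library 2 alone. The 250 bases before the start are printed for these 6 genes, because they are the matched keratin promoters at which peaks were called. Genes with no matched window, Krt19 and Krt80 among them, were not examined. Of the unmatched genes, Krt222, Krt19, Krt80, Krt86, Krt88, Krt1 and Krt4 each had a region called in all 6 libraries within 1 kb of a gene end. A gene end here means either edge of the gene span. The share of open promoters thus covers the matched genes alone. Letters in capitals are matches, on either strand, to TATAAA (the TATA box), GGGCGG (bound by Sp and Klf factors), TGANTCA (the AP-1 motif), CCAAT (the box of factor NF-Y) or CACCC (a motif of Klf factors), and a match on the lower strand reads as its reverse complement. Each sequence runs 5′ to 3′ in the direction of the gene. Krt7 (chr15:101412153-101412402) and Krt18 (chr15:102027966-102028215) lie on the plus strand. Krt8 (chr15:102004343-102004592), Krt77 (chr15:101869706-101869955), Krt27 (chr11:99351119-99351368) and Krt71 (chr15:101743098-101743347) lie on the minus strand.
Krt7: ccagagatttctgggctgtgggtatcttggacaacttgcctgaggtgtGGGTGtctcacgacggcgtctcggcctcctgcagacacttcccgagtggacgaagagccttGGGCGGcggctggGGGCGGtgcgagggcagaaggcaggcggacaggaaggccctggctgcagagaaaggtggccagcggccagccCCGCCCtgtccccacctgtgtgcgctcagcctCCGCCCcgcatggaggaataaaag
Krt8: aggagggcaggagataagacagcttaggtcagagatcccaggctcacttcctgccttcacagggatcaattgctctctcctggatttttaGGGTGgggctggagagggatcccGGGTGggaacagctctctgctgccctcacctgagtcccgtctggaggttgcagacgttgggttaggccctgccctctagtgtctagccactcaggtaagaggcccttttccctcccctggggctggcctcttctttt
Krt18: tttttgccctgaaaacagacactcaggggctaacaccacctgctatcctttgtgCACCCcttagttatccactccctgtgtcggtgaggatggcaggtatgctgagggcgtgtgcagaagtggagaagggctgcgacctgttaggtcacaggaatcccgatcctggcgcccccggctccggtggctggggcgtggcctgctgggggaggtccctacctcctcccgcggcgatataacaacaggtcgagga
Krt77: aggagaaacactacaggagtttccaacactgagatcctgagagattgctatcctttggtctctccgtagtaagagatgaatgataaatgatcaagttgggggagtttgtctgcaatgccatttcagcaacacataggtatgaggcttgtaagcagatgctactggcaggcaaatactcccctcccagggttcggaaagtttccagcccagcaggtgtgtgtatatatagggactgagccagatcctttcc
Krt27: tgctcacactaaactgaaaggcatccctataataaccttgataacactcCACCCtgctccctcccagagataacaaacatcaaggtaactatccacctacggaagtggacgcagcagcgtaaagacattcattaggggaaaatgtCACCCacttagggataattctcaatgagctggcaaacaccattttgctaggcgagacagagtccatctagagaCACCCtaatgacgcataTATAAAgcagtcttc
Krt71: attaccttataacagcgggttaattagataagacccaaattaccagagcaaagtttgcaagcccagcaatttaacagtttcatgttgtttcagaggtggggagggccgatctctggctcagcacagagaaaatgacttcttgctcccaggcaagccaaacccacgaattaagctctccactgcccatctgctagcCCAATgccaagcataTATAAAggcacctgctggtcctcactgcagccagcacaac
Matches did not overlap one another in the printed promoters. In the first line GGGCGG occurred 4 times before Krt7, and no other printed promoter held it. TATAAA was found in the printed promoters of Krt27 and Krt71, the inner root sheath genes, and in none of the 4 windows open in every library. In each window motifs were searched in the 250 bases before the start alone, and GC content was read over the whole window. Over all 37 keratin windows TATAAA was present in 17, or 45.9%, against 11.6% of all promoter windows, and in 15 of the 31 windows with no peak. GGGCGG was present in 2 keratin windows, or 5.41%, against 42.6% of all windows. CACCC occurred in 78.4% against 54.2%, CCAAT in 40.5% against 35.4% and TGANTCA in 5.41% against 6.13%. The median GC content was 48.7% over the keratin windows and 56.3% over all windows, and the median number of CpG pairs was 5 against 13. The 4 open windows had a median GC content of 59.7%. A match of letters is a description, and its absence says nothing of the factor that may bind.

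The libraries held between 100109 and 110693 peaks in the control and between 119088 and 124125 in the knockout, covering 58.0 to 63.8 Mb and 65.8 to 69.1 Mb. Reads are not counted in the lists, and the depth behind them is unknown. Covered length, the number of bases under peaks in a territory, was therefore scaled to the mean total covered length of the 6 libraries. Genes were compared by limma on log2 of scaled covered length plus 300 bp, over the 17707 genes with a mean of at least 300 bp before scaling, at a Benjamini-Hochberg adjusted p of 0.05. All fold changes are on that scale, and standard errors (SE) come from the fit. Chd4 itself had 5990, 5291 and 5794 bp in the control and 4771, 5537 and 4929 bp in the knockout (log2 fold change -0.16 ± 0.08, limma adjusted p = 0.17). A peak list does not show whether exons of Chd4 were removed, so this checks no label. The 8 β-cell marker genes all carried peaks (0 higher and 3 lower by limma, where 14.5% of all genes were lower, and 1 higher and 1 lower without scaling), and their summed covered length ran from 31635 to 34740 bp in the control and from 26038 to 26874 bp in the knockout. Scaling matters for the reading of these data: the median log2 fold change over all genes was -0.09 with it and 0.06 without it, and the share of higher genes among all calls was 34.2% with it and 83.5% without it.

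Of the 36 keratin genes that met the minimum, 11 had more covered length in the knockout by limma and 0 had less, where 7.56% of all genes tested were higher and 14.5% lower. Read without a test, 15 keratin genes had every knockout library above every control library and 3 had the reverse, against 13.1% and 32.7% of all genes tested. The median log2 fold change was 0.15 over the 36 genes. Without scaling, 13 keratin genes were higher and 0 lower, where 14.6% of all genes were higher and 2.88% lower, and the median was 0.29. The 11 genes were Krt28, Krt36, Krt13, Krt15, Krt16, Krt17, Krt42, Krt71, Krt72, Krt73 and Krt76. Because neighbours share peaks, they stand for 6 separate stretches of chromatin: Krt28 alone, Krt36 to Krt15, Krt16 to Krt42, Krt71 alone, Krt72 with Krt73, and Krt76 alone. In bulk libraries, a change in the share of cells of another type cannot be told apart from a change within the β-cells.

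Filtering on a mean bears on these counts. Krt16, Krt17, Krt42, Krt71 and Krt73 averaged under 300 bp in the control and met the minimum only through their knockout libraries, so a difference was built into their selection, and the count of 11 is not support for a trend of the family. No tested keratin gene averaged under the minimum in the knockout. The gene just inside was Krt5, at a mean of 374 bp, and the gene just outside was Krt12, at 268 bp. With no minimum, 14 of 49 keratin genes with a peak were higher and 0 lower, where 8.2% of all genes were higher and 13.9% lower. Of the 11 genes, 5 still passed without knockout library 1 and 7 without knockout library 2. Without control library 1, 2 or 3 it was 8 each time, and without knockout library 3 it was 9. Krt36 passed with every single library left out. So did Krt16, Krt17, Krt42 and Krt71, for which this says little, since they met the minimum only through the knockout.

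Counts over the family also turned on the peaks and flanks used. With the 50000 strongest peaks of each library, 5 of 28 tested keratin genes were higher by limma, where 7.06% of all genes were, and 3 lower, where 9.34% were: Krt8 (log2 fold change -0.66), Krt10 (-0.36) and Krt78 (-0.23). With flanks of 2 kb, 4 of 20 were higher and 2 lower, the hair keratins Krt87 (-0.62) and Krt86 (-0.19), where 6.7% of all genes were higher and 14.3% lower. With flanks of 50 kb, where one peak falls in many territories, 26 of 53 were higher and 0 lower, where 7.7% were higher and 12.7% lower.

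**Figure D1:**
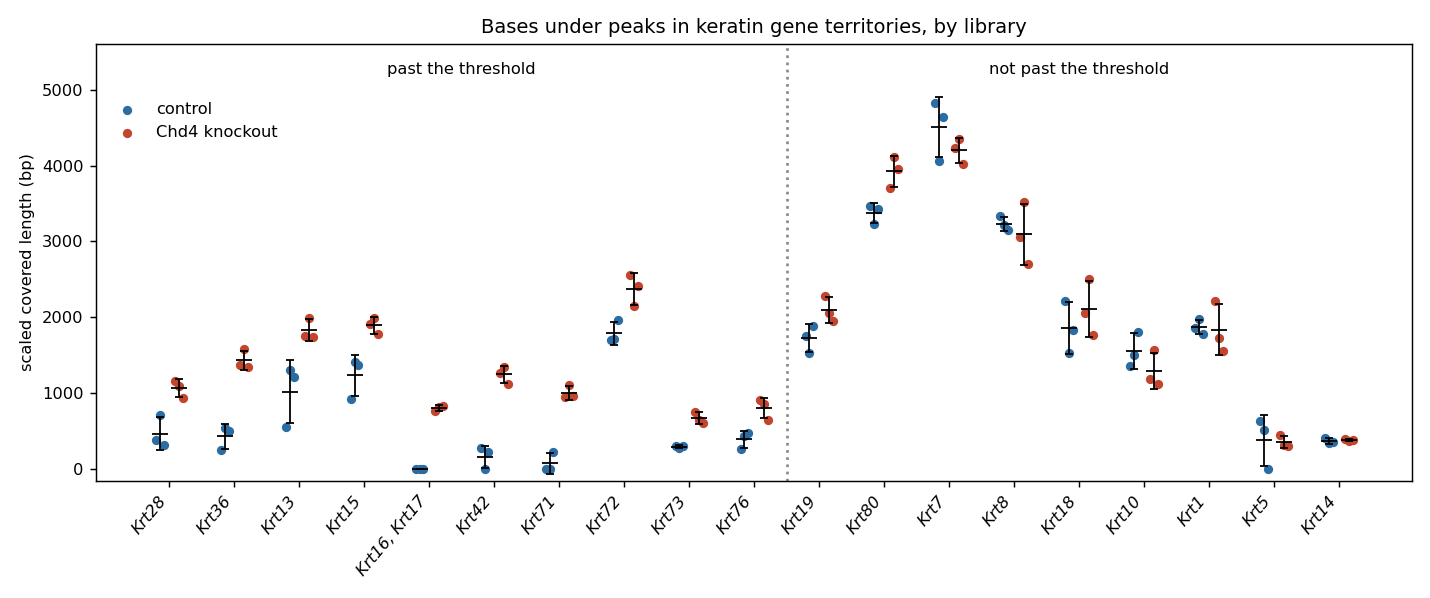
Scaled covered length (bp, vertical axis) in the territories of keratin genes, with 1 point per library in blue for control and red for knockout, and black bars for the mean and SD of 3. Genes left of the dotted line passed the limma threshold; Krt16 and Krt17 share every peak and are drawn once, with the 3 control libraries at 0 bp.

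Of the simple epithelial keratins, a class that here also holds Krt80 and Krt222, none passed the threshold. Of its 8 genes 6 were tested, where 7.56% of all genes tested were higher and 14.5% lower. Their median log2 fold change was 0.05. At Krt7, a type II keratin of ducts (chromosome 15, 101412403 to 101427806), covered length was 4819, 4058 and 4643 bp in the control and 4237, 4343 and 4016 bp in the knockout. The groups overlapped (log2 fold change -0.09 ± 0.08, limma adjusted p = 0.38). Krt8, the type II keratin of simple epithelia (chromosome 15, 101996711 to 102004342), had 3331, 3212 and 3149 bp against 3056, 3514 and 2708 bp. The knockout libraries lay on both sides of the control ones (log2 fold change -0.06 ± 0.09, limma adjusted p = 0.62). Its partner Krt18 (chromosome 15, 102028216 to 102032026) had 2218, 1529 and 1839 bp against 2064, 2506 and 1771 bp, again with overlap (0.16 ± 0.14, limma adjusted p = 0.43). Without scaling, Krt7 and Krt8 had log2 fold changes of 0.07 and 0.09, the opposite sign, and did not pass.

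Krt19, the type I keratin of pancreatic ducts (chromosome 11, 100140810 to 100145926), had 1759, 1533 and 1891 bp in the control and 2279, 2059 and 1954 bp in the knockout. All knockout libraries lay above all control libraries, and the difference missed the threshold (log2 fold change 0.24 ± 0.09, limma adjusted p = 0.082), which it passed without scaling (0.39, limma adjusted p = 0.019). Krt80, a type II keratin of many epithelia (chromosome 15, 101348315 to 101370162), behaved likewise at 3466, 3224 and 3431 bp against 3708, 4111 and 3949 bp. Its log2 fold change was 0.20 ± 0.06 (limma adjusted p = 0.057; 0.012 without scaling). With flanks of 2 kb it was 0.70 and passed (limma adjusted p = 0.018), and with flanks of 50 kb it was 0.07 (limma adjusted p = 0.45). For Krt19 flanks of 50 kb gave 0.66, which passed (limma adjusted p = 0.0044). Krt20, known from intestinal and urothelial cells, was listed at 0 bp in the control and in knockout library 3, and at 248 and 242 bp in knockout libraries 1 and 2, and was not tested. Krt23 had no peak in its territory in any library. The same was true of 3 other genes of chromosome 11: Krt26 of the hair follicle sheath and the hair keratins Krt33b and Krt34.

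The duct marker list, which holds Krt7 and Krt19 beside Sox9, Spp1, Cftr and Muc1, summed to 14545 to 15338 bp in the control and 13248 to 14593 bp in the knockout. Of these 6 genes, 0 were higher and 1, Spp1, was lower by limma, where 7.56% of all genes tested were higher and 14.5% lower. Without scaling 1 was higher, Krt19, and 1 lower, where 14.6% of all genes tested were higher and 2.88% lower. Of the 6 acinar markers Cpa1, Amy2b and Prss1 were at 0 bp in every library, and the sum was 1404 to 1473 bp in the control and 1442 to 2679 bp in the knockout, highest in knockout library 1. The part of other cell types in the keratin results was not tested.

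Of the 4 best known keratins of the epidermis, none passed the threshold with flanks of 10 kb. With flanks of 50 kb Krt14 (log2 fold change 1.02, limma adjusted p = 0.0012) and Krt5 (0.75, limma adjusted p = 0.045) were higher, and with the 50000 strongest peaks Krt10 was lower (-0.36, limma adjusted p = 0.0029). Krt5 and Krt14 are the basal pair. Krt5 had 632, 517 and 0 bp in the control and 453, 323 and 313 bp in the knockout (log2 fold change 0.11 ± 0.40, limma adjusted p = 0.85). Krt14 had 415, 349 and 356 bp against 402, 378 and 389 bp (0.04 ± 0.14, limma adjusted p = 0.86). Both were close to the minimum, with groups that overlapped. The value of Krt5 turned on control library 3, where no peak was listed: without that library it was -0.41.

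Krt1 and Krt10 form the suprabasal pair. Krt1 had 1865, 1974 and 1784 bp against 2216, 1736 and 1563 bp (-0.04 ± 0.11, limma adjusted p = 0.83), and 0.11 without scaling. Krt10 had 1356, 1508 and 1813 bp against 1194, 1565 and 1123 bp (-0.22 ± 0.13, limma adjusted p = 0.23). The 8 keratinocyte markers, these 4 genes with Trp63, Dsg3, Lor and Ivl, included 0 that were called by limma in either direction, with Dsg3 and Ivl at 0 bp in every library. Of the 8, 6 were tested, where 7.56% of all genes tested were higher and 14.5% lower. The 8 markers summed to 7376 to 7848 bp in the control and 7126 to 7660 bp in the knockout.

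Krt16, Krt17 and Krt42 stood at the far end of the chromosome 11 cluster. Krt16 and Krt17 are type I keratins of skin appendages and of injured epidermis, and Krt42 is a type I keratin known from the nail. The territories of Krt16 (100246091 to 100248902) and Krt17 (100256215 to 100261029) held the same peaks: 0 bp in all 3 control libraries and 763, 823 and 832 bp in the knockout (limma adjusted p = 0.0013). Both genes met the minimum only through their knockout libraries, so this p is not independent of their selection, and no fold is given against a group listed at 0. Krt42 (100262882 to 100269951) had 275, 0 and 225 bp in the control and 1272, 1352 and 1127 bp in the knockout (log2 fold change 1.79 ± 0.24, limma adjusted p = 0.0042). Krt42 too met the minimum only through its knockout libraries, so its p is not independent of its selection either. Its peaks include those of the 2 neighbours.

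Between Krt16 and Krt17, peaks were listed in the knockout libraries alone. The region at chromosome 11, 100254188 to 100254831, was 1384 bp from the nearer end of Krt17 and covered 607, 573 and 583 bp in the knockout libraries. The authors' fold enrichment at its summit was 23.9, 21.2 and 16.3 in those lists, the highest of the regions gained at keratins in each list. A weaker one lay next to it at 100252796 to 100253129, with 201, 320 and 276 bp. Another region near Krt42, at 100277843 to 100278530, was called in control libraries 1 and 3 as well, at 250 and 205 bp, and covered 564, 646 and 391 bp in the knockout.

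Krt36, Krt13 and Krt15 made the other stretch of called genes in the same block. Krt36 is a hair and nail keratin (chromosome 11, 100102012 to 100109487), and had 251, 550 and 502 bp in the control against 1374, 1581 and 1351 bp in the knockout (log2 fold change 1.26 ± 0.17, limma adjusted p = 0.0041). The lowest knockout library was above the highest control library. Krt13, a type I keratin of mucosal epithelia (100117327 to 100121566), had 552, 1308 and 1211 bp against 1761, 1998 and 1744 bp (0.74 ± 0.22, limma adjusted p = 0.048). This call was the closest to the threshold of the 11: it was lost without scaling (limma adjusted p = 0.061), with an offset of 100 bp (0.056), with no minimum (0.053) and with the 50000 strongest peaks (0.22). It was also lost without control library 2 (limma adjusted p = 0.052) or 3 (0.073). The same was true without knockout library 1 (limma adjusted p = 0.094), 2 (0.11) or 3 (0.074). Krt15, known from basal keratinocytes and hair follicle stem cells (100131759 to 100135949), had 928, 1414 and 1379 bp against 1910, 1994 and 1780 bp (0.53 ± 0.13, limma adjusted p = 0.028). Krt15 did not pass without control library 3 (limma adjusted p = 0.052), or without knockout library 1 (0.071) or 2 (0.07).

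A region between Krt36 and Krt13, at 100113027 to 100114261, lay 3066 bp from Krt13 and was called in all 6 libraries. It covered 228, 551 and 458 bp in the control and 1062, 1233 and 1002 bp in the knockout, so the peak was wider in the knockout and not a peak that appeared there. A gained region, meaning one that all 3 knockout libraries and no control library listed, lay at 100097728 to 100098244 beside Krt35 and covered 392, 482 and 393 bp. It was the only region in the territories of the hair keratins Krt32 and Krt35, which were listed at 0 bp in every control library.

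**Figure D2:**
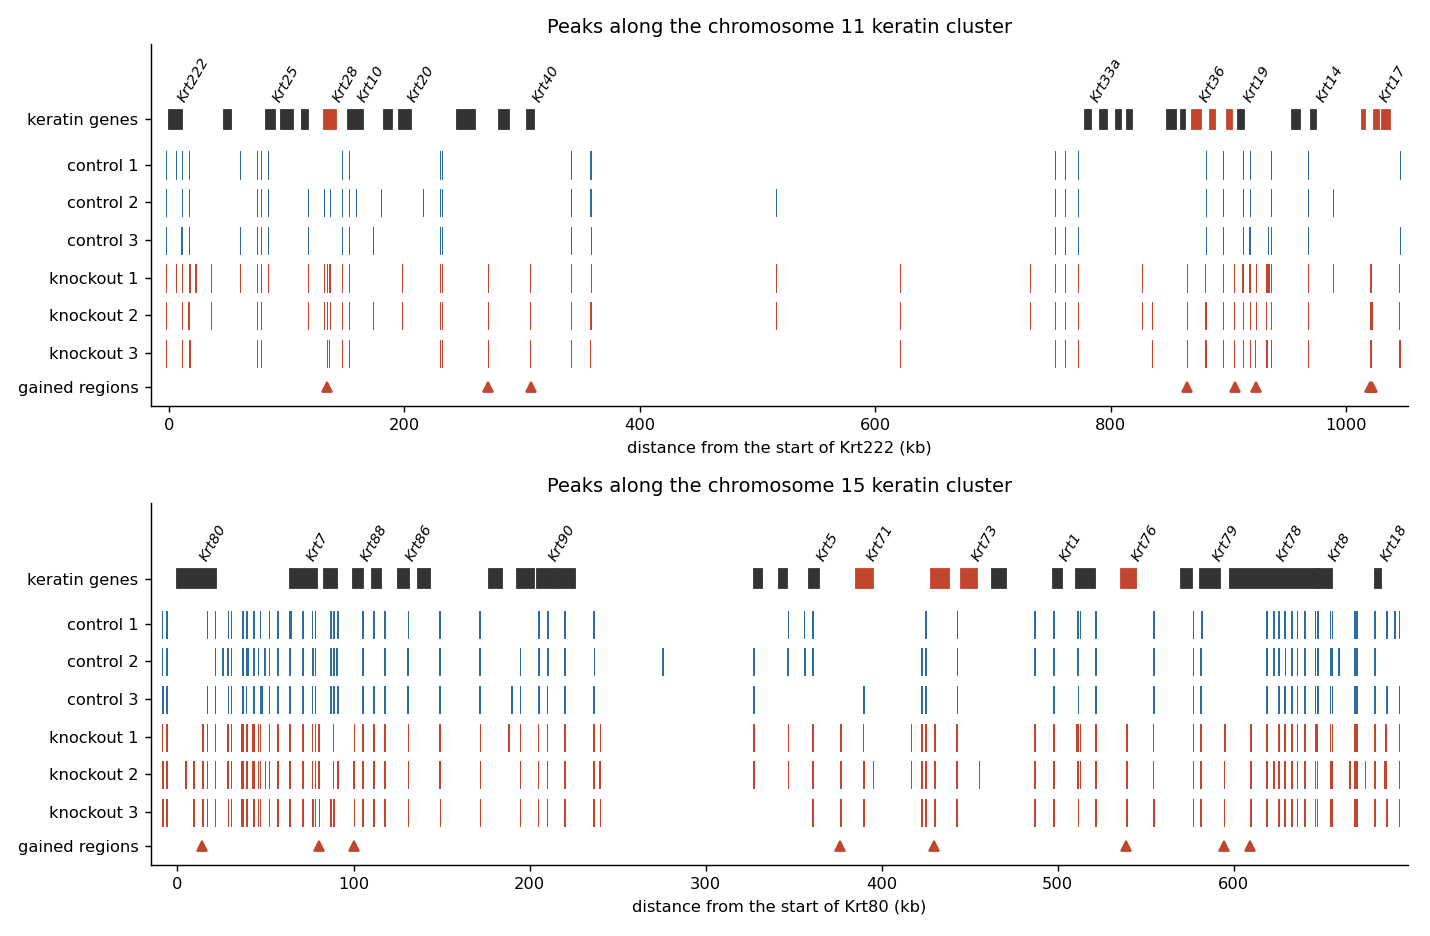
Peaks of each library (rows; blue, control; red, knockout) along the 2 keratin clusters, with distance from the first gene in kb on the horizontal axis, keratin genes as boxes (red where limma called more covered length) and triangles at the 16 gained regions. The chromosome 11 cluster shows 2 blocks of genes with the Krtap genes between them, and its gained regions lie mostly in the block on the right.

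Keratins of the hair follicle sheath included 4 of the 11 called genes, among 6 tested of 8, where Krt71 and Krt73 met the minimum only through the knockout. Over all genes tested, 7.56% were higher and 14.5% lower. Krt28, a type I keratin of the inner root sheath (chromosome 11, 99365007 to 99374903), had 383, 717 and 315 bp in the control and 1166, 1100 and 933 bp in the knockout (log2 fold change 0.86 ± 0.19, limma adjusted p = 0.02). Krt28 did not pass without control library 1 (limma adjusted p = 0.059) or 3 (0.061), or without knockout library 1 (0.062) or 2 (0.052). With flanks of 50 kb its log2 fold change was 0.09 (limma adjusted p = 0.76). A gained region lay inside the gene at 99366814 to 99367177, with 339, 345 and 332 bp. Krt71 is a type II keratin of the inner root sheath (chromosome 15, 101733949 to 101743097). It was listed at 0 bp in control libraries 1 and 2 and at 235 bp in control library 3, and had 953, 1117 and 961 bp in the knockout (1.85 ± 0.24, limma adjusted p = 0.0038). Most of this came from a region inside the gene, at 101737633 to 101738410, with 214 bp in control library 3 and 761, 713 and 719 bp in the knockout.

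Krt72 and Krt73 are type II keratins of the cuticle of the inner root sheath, and neighbours on chromosome 15. Krt72 (101776172 to 101786520) had 1701, 1712 and 1962 bp against 2558, 2147 and 2412 bp (0.35 ± 0.08, limma adjusted p = 0.025). Krt73 (101793304 to 101802360) had 307, 283 and 311 bp against 761, 654 and 604 bp (0.69 ± 0.13, limma adjusted p = 0.012). Krt72 did not pass without control library 1 (limma adjusted p = 0.072) or 2 (0.062), or without knockout library 1 (0.081) or 3 (0.054). Krt73, beside Krt72, did not pass without knockout library 1 (limma adjusted p = 0.054). A region called in every library, at 101790593 to 101791397, lies between them and covered 279, 283 and 284 bp in the control and 805, 452 and 624 bp in the knockout. Krt72 also held a gained region inside the gene, at 101778056 to 101778367, with 273, 312 and 270 bp.

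Krt25, another inner root sheath gene of type I (chromosome 11, 99315516 to 99322951), went the other way. It had 931, 880 and 921 bp in the control and 848, 606 and 533 bp in the knockout, with every knockout library below every control library. The difference did not pass (log2 fold change -0.34 ± 0.13, limma adjusted p = 0.095), and it passed only when knockout library 1 was left out (-0.48, limma adjusted p = 0.049). Krt25 had the lowest log2 fold change of the 36 keratin genes. The 6 tested genes of the sheath had a median log2 fold change of 0.52, which rests in part on Krt71 and Krt73 and is no support for a trend of the class.

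Of the 16 hair and nail keratins, 8 reached the minimum. Krt36 was the 1 that passed, where 7.56% of all genes tested were higher and 14.5% lower. The 8 had a median log2 fold change of -0.05. Krt86 and Krt83, hair keratins of type II on chromosome 15, had every knockout library under every control library, as did 32.7% of all genes tested. Krt83 had 1538, 1504 and 1531 bp against 1353, 1358 and 1190 bp (-0.19 ± 0.07, limma adjusted p = 0.095). For Krt86 the values were 2028, 2012 and 2193 bp against 1814, 1823 and 1762 bp (-0.18 ± 0.06, limma adjusted p = 0.075). Without scaling the groups overlapped at both genes, and the log2 fold changes were -0.05 for Krt83 and -0.03 for Krt86. Krt39 and Krt40, hair keratins of chromosome 11, were listed at 0 bp in the control, and each held 1 gained region, with 276, 276 and 282 bp at 99503853 to 99504174 and 296, 280 and 200 bp at 99539870 to 99540168. Krt31 was listed at 0 bp in the control and in knockout library 3.

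Among keratins of stratified epithelia, 6 of the 16 tested of 21 passed, all higher, where 7.56% of all genes tested were higher. Of these, Krt16, Krt17 and Krt42 met the minimum only through the knockout and share peaks. The median log2 fold change of 0.26 rests in part on them, and neither value is support for a trend of the class. Krt76, a type II keratin of the palate and other oral epithelia (chromosome 15, 101884351 to 101892920), had 268, 439 and 480 bp in the control and 912, 854 and 654 bp in the knockout (0.67 ± 0.16, limma adjusted p = 0.026). Krt76 did not pass without control library 1 (limma adjusted p = 0.059), knockout library 1 (0.087) or knockout library 2 (0.068), nor without control library 2. Both of its regions differed. One called in all libraries, at 101902253 to 101903248, covered 244, 450 and 448 bp against 994, 983 and 715 bp, and a gained one inside the gene, at 101887189 to 101887485, covered 297, 271 and 269 bp. Krt79 and Krt90 also had all knockout libraries above the control ones and did not pass (0.46 ± 0.15, limma adjusted p = 0.066, and 0.30 ± 0.11, limma adjusted p = 0.074). Krt78 held 12 regions in its territory, which takes in peaks at its neighbour Krt8. Its covered length was 6819, 6095 and 6382 bp against 6727, 7201 and 6230 bp, and the groups overlapped (0.06 ± 0.07, limma adjusted p = 0.57). Krt2, of the upper epidermis, was listed at 0 bp in all libraries but knockout library 2.

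The other 10 tested genes, Krt222, Krt9, Krt87, Krt88, Krt81, Krt84, Krt82, Krt75, Krt77 and Krt4, had groups that overlapped and log2 fold changes from -0.13 (Krt222) to 0.33 (Krt82). None passed, and the lowest limma adjusted p among them was 0.19, at Krt82. Krt9 shares its only region with Krt14. The other 6 genes under the minimum, Krt24, Krt27, Krt12, Krt33a, Krt6b and Krt6a, had peaks in libraries of both groups.

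**Figure D3:**
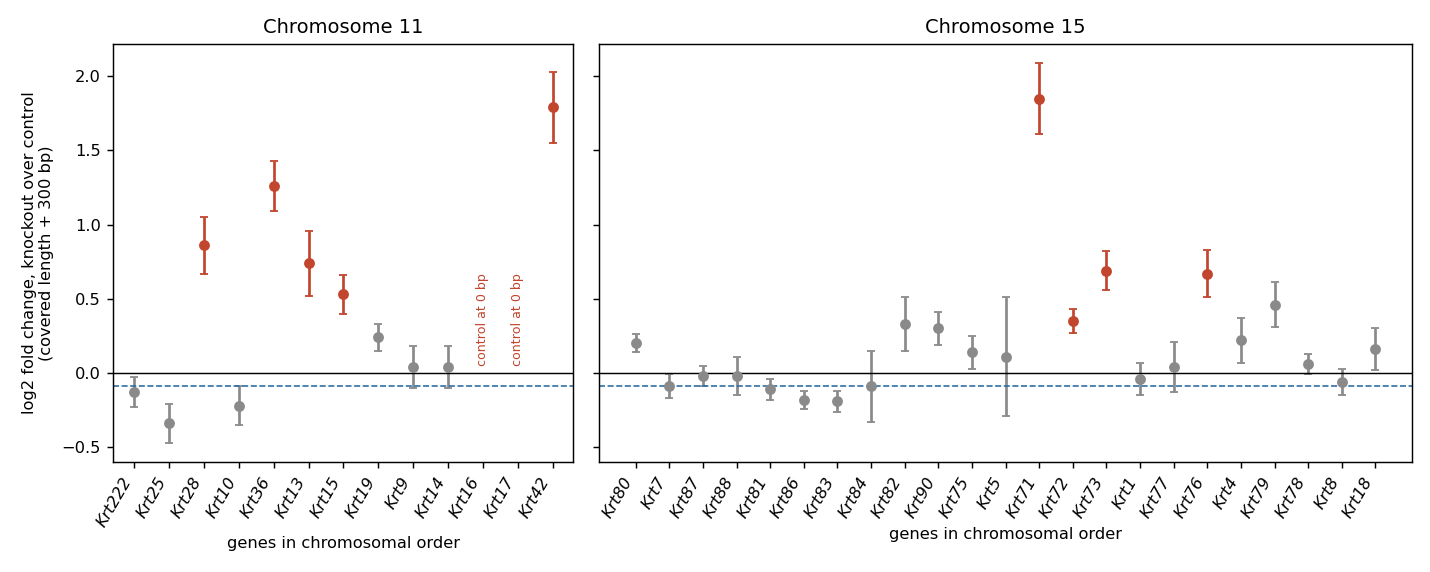
Log2 fold change of covered length (knockout over control, plus 300 bp, with SE bars) for the keratin genes tested, in chromosomal order; red points passed the limma threshold, Krt16 and Krt17 have no point because the control was at 0 bp, and the dashed line is the median over all genes tested, -0.09. Red points are Krt28, Krt36, Krt13, Krt15 and Krt42 on chromosome 11 and Krt71, Krt72, Krt73 and Krt76 on chromosome 15.

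Set side by side, the chromosome 11 cluster was the sparser. Its ratio of knockout to control was the larger with all peaks, but with the 50000 strongest peaks of each library both ratios were 1.20. It held 34 regions, or 6.62 per 100 kb of territory, and the chromosome 15 cluster held 76, or 13.7 per 100 kb, where the genome as a whole had 5.76. On chromosome 11, scaled covered length was 8939, 9449 and 10467 bp in the control and 13764, 13957 and 11026 bp in the knockout. All knockout libraries were higher, with a ratio of means of 1.34, or 1.51 without scaling. On chromosome 15 it was 29140, 28002 and 29244 bp in the control and 32196, 33376 and 29121 bp in the knockout. Here knockout library 3 fell within the control range, and the ratio was 1.10, or 1.24 without scaling. Per kb of territory, chromosome 11 went from 18.7 to 25.1 bp and chromosome 15 from 51.8 to 56.8 bp, where the genome held 23.4 bp. Both totals are sums over chosen genes and have no p-value, and the difference between the clusters was not tested.

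The higher covered length of chromosome 11 lay mostly in 1 of its 2 blocks. The cluster is divided by the Krtap genes. The 12 genes from Krt222 to Krt40 had 6069 ± 396 bp in the control and 6460 ± 1131 bp in the knockout (SD, n = 3), with overlap and a ratio of 1.06. The 15 genes from Krt33a to Krt42 had 3225, 3453 and 3971 bp in the control and 6686, 6810 and 5871 bp in the knockout, a ratio of 1.82, or 2.05 without scaling. In this block, chosen after values were seen, 5 of 13 regions were gained, where 10.3% of all regions were. The 23 Krtap genes between them, which encode matrix proteins of hair, had 6 regions, of which 2 were gained, and went from 3354 ± 212 to 3815 ± 161 bp, a ratio of 1.14.

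**Figure D4:**
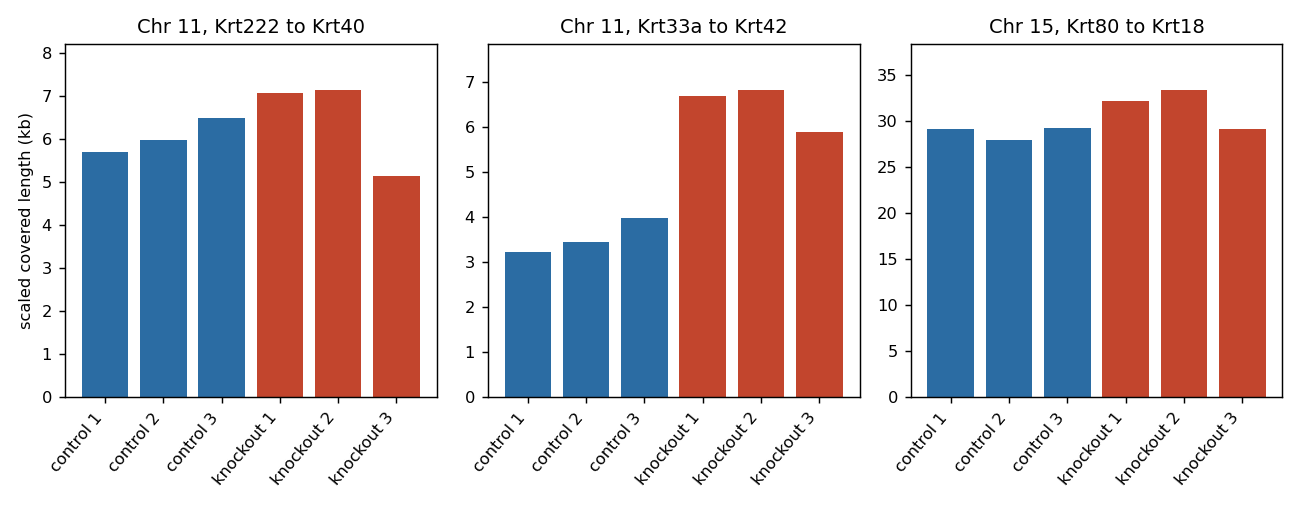
Scaled covered length (kb, bars from 0, 1 bar per library) in the territories of the 2 blocks of the chromosome 11 cluster and of the chromosome 15 cluster; each panel has its own vertical scale. In the middle panel all 3 knockout bars stand above all control bars, and in the outer panels knockout library 3 lies within or under the control range.

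Across all keratin territories, 16 of 110 regions, or 14.5%, were gained and 0 were lost, the reverse pattern of called in all 3 control and no knockout library. Over all 156745 regions 10.3% were gained and 2.62% lost. With the 50000 strongest peaks of each library, 8 of 58 keratin regions were gained and 4 lost, where 8.49% and 6.7% of all such regions were. Another 52 keratin regions, or 47.3%, were called in all 6 libraries, where 48% of all regions were. The remaining 42 were called in some libraries of either group: 25 of them in more knockout than control libraries, 12 in more control libraries and 5 in equal numbers. On chromosome 11, 8 of 34 regions were gained, and on chromosome 15, 8 of 76. Gained regions lay mostly away from gene ends: 8 were between genes, 6 within a gene and 2 within 1 kb of an end, whereas 19 of the 52 regions shared by all libraries lay at a gene end, 11 within a gene and 22 between genes. These places were not compared with those of gained regions over the whole genome.

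The gained regions were narrow and ranked low. They were 287 to 682 bp wide with a median of 415 bp, against a median of 780.5 bp for the shared keratin regions. By the authors' −log10 q, their median percentile within the knockout lists was 38.4, 36.9 and 28.8, against 72.6, 72.8 and 64.5 for the shared ones. The sets differ by definition, since gained regions had to be missing from every control list and shared ones called in all 6 libraries. Width and rank were not compared with gained regions of the whole genome, so they are not shown to be a trait of keratins. Among the gained regions with the highest enrichment were the ones beside Krt17, inside Krt28 and inside Krt80. The one inside Krt80, at chromosome 15, 101362194 to 101362752, covered 500, 549 and 539 bp with an authors' fold enrichment of 13.6, 13.7 and 13.2. Krt78 had a gained region too, inside the gene at 101957566 to 101957960, with 380, 375 and 379 bp.

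At the edge of Krt7, 2 neighbouring regions went in opposite directions. A gained region at 101428287 to 101428901 lay 481 bp past the end of the gene and covered 555, 535 and 470 bp in the knockout. The region before it, at 101426261 to 101427126 inside the end of the gene, was called in all libraries and covered 568, 866 and 806 bp in the control and 498, 525 and 494 bp in the knockout. A region at the higher-coordinate edge of Krt87, at 101438619 to 101439521, was called in all 3 control libraries, at 369, 903 and 298 bp. Among knockout libraries it was called in library 2 alone, at 450 bp. The other gene-end gain lay within Krt88, at 101448235 to 101448809, with 447, 575 and 416 bp.

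The last gained regions were each away from promoters. That at chromosome 11, 100137776 to 100138210, between Krt15 and Krt19, covered 347, 435 and 248 bp. Farther out at 100155575 to 100156256, 9649 bp from Krt19, a region covered 229, 355 and 262 bp. On chromosome 15, the one at 101724691 to 101724977, 8972 bp from Krt71, covered 248, 239 and 274 bp, and the one at 101942613 to 101943054, between Krt79 and Krt78, covered 230, 442 and 336 bp. At the 10 kb limit of the territories, the ring from 5 to 10 kb held 24 regions with 3 gained and 0 lost, and the ring just outside, from 10 to 15 kb, held 19 with 2 gained and 0 lost.

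Shared regions differed more often in width towards the knockout. Bases under peaks, here without scaling, lay higher in every knockout library than in every control library at 21 of 52 shared keratin regions, or 40.4%, and lower at 7, or 13.5%. Over all 75312 regions called in all libraries the shares were 18.8% and 14%. On chromosome 11 it was 5 higher and 1 lower of 13, and on chromosome 15 it was 16 and 6 of 39. Near the higher-coordinate edge of Krt19, the region at chromosome 11, 100144714 to 100145637, covered 571, 657 and 611 bp in the control and 873, 793 and 791 bp in the knockout.

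The 5 widest shared regions lay on chromosome 15, and at 2 of them the groups did not overlap. That near the higher-coordinate edge of Krt78, a gene on the minus strand, 101994314 to 101996161, covered 1137, 1249 and 1189 bp against 1590, 1651 and 1277 bp. The region over the start of Krt18, 102027817 to 102029183, covered 1252, 1346 and 1221 bp against 1347, 1367 and 1359 bp, with every knockout library again the higher. The regions in Krt77 (101859103 to 101860430; 977, 1090 and 818 bp against 1231, 933 and 796 bp), at Krt72 (101772660 to 101773983; 1269, 1215 and 1265 bp against 1324, 1266 and 1268 bp) and over the start of Krt7 (101411827 to 101413134; 1308, 1046 and 1069 bp against 1050, 1077 and 990 bp) had groups that overlapped.

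**Figure D5:**
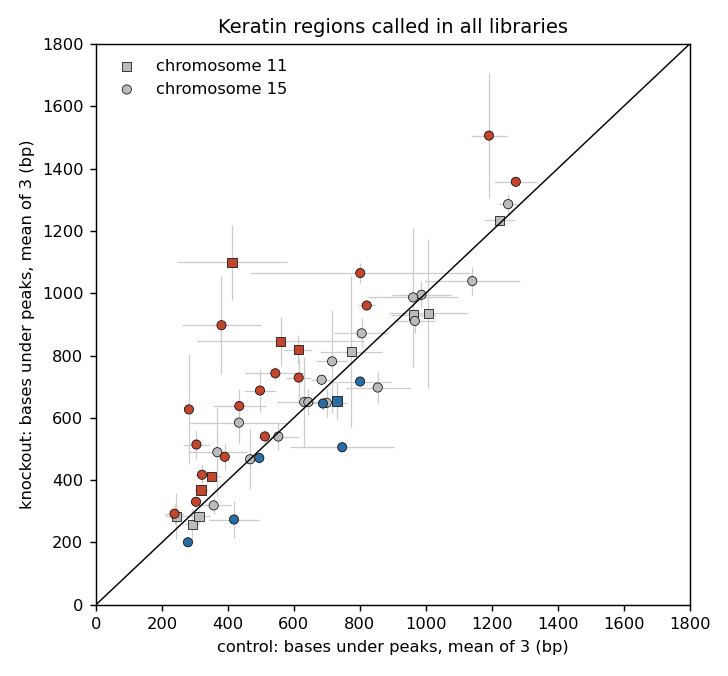
Bases under peaks (bp, without scaling) at the 52 keratin regions called in all libraries, mean of 3 control libraries on the horizontal and of 3 knockout libraries on the vertical axis, with SD bars; red points have every knockout library above every control one, blue points the reverse. Of the 52, 21 are red and lie over the diagonal, and 7 are blue.

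Lists of genes that work with keratins were read from the same fit. Of 15 other intermediate filament genes, 1 was higher by limma and 0 lower. That was Des, the filament protein of muscle, at 0.37 ± 0.07 (limma adjusted p = 0.01). Of 17 genes of desmosomes and their linkers, to which keratin filaments attach, 13 reached the minimum. Pkp1, a plakophilin of stratified epithelia, was higher at 1838 ± 226 bp in control and 3173 ± 134 bp in knockout libraries (SD, n = 3; log2 fold change 0.70 ± 0.09, limma adjusted p = 0.0032). Evpl, the cornified envelope protein envoplakin, was lower (-0.26 ± 0.06, limma adjusted p = 0.025), and Dsg1a, Dsg3 and Dsc1 had no peak. Among 14 transcription factors and other regulators of epithelia, Klf5 was higher (0.38 ± 0.07, limma adjusted p = 0.012). Ovol2, Tfap2a and Elf3 were lower (-0.34 ± 0.07, -0.46 ± 0.13 and -0.19 ± 0.06, with limma adjusted p of 0.02, 0.039 and 0.05, the last under the threshold before rounding). Together 3 of 42 tested genes were higher and 4 lower, where 7.56% and 14.5% of all genes tested were, with a median of -0.05. Without scaling 5 were higher and 0 lower, where 14.6% and 2.88% of all genes tested were. Evpl (-0.11), Ovol2 (-0.18), Tfap2a (-0.32) and Elf3 (-0.04) no longer passed.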

How the data were processed

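Each library has its own list of narrow peaks, deposited by the authors. Peak names inside the deposited lists point to MACS2 on shifted cutting sites. The submitters' processing notes name mm10 as the build; version, settings and aligner are not stated. The deposited lists give for each peak a score of 10 times the −log10 q, that −log10 q itself, a −log10 p and a fold enrichment as a ratio, which were used only to describe and rank peaks within a list. Peaks were at least 200 bp wide. Peak counts depend on depth, which is unknown, so no counting interval could be given.

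Gene spans and promoters came from RefSeq for GRCm38.p6. Covered length was computed in Python 3.11.15 with pandas 2.3.3 and numpy 2.4.6, and fitted in R 4.3.3 by limma 3.58.1, using an intensity trend and no covariates. Peaks overlapping by 1 bp were merged. The genes, lists and motifs were chosen with earlier results of these data known. Text names the called genes, the simple and epidermal keratins, the 3 highest and lowest log2 fold changes, genes with no peak, all gained regions and the 5 widest shared ones. Krt78, Krt79, Krt83, Krt86, Krt87, Krt90, the other regions described and the split of the chromosome 11 cluster were chosen after values were seen. Alternatives were no scaling, an offset of 100 bp, no minimum, flanks of 2 and 50 kb, the 50000 strongest peaks, peaks over 50% of a region, summits joined within 150 bp, a replicate block and leaving out each library. One gene of the duct marker list is not reported here, and the sum of that list leaves it out.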

Additional observations from a re-analysis of the deposited data

How the results depend on the processing

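The lists hold no reads, so a peak missing from a library cannot be told from one just under the caller's threshold, and knockout lists are longer. Of 11 keratin genes with more covered length, 10 passed without scaling, with the 100 bp offset, with no minimum and with 50 kb flanks. With 2 kb flanks only 2 of the 11, Krt28 and Krt71, met the minimum, and both passed. With the 50000 strongest peaks 6 of the 11 met it, and 5 passed. Counts of higher keratin genes were 4 with 2 kb flanks, 26 with 50 kb flanks, 5 with the 50000 strongest peaks, and 5 to 10 with 1 library left out. Counts of lower ones were 2 with 2 kb flanks, 3 with the strongest peaks and 0 to 1 with 1 library left out. Replicate numbers did not pair the libraries: correlations of deviations from the group means were 0.13, 0.0927 and -0.0273. With the replicate block 11 keratin genes were higher and 0 lower, and of the 11 Krt76 was lost (limma adjusted p = 0.052).

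Gained keratin regions numbered 8 with the strongest peaks. Lost ones numbered 4 with the strongest peaks, 2 when summits were joined and 0 to 1 with 1 library left out. Regions called in all libraries were 23 with the strongest peaks and 32 with 2 kb flanks. The chromosome 15 ratio was 1.24 without scaling and 1.20 with the strongest peaks, where the chromosome 11 ratio fell from 1.34 to 1.20 and the clusters no longer differed in it. Other filament, desmosome and epithelial genes gave 5 higher and 0 lower without scaling, and 0 to 4 lower with 1 library left out.

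Signs turned at genes that were not called. Without scaling Krt1 had 0.11, Krt7 0.07 and Krt8 0.09. With 2 kb flanks Krt8 had 0.06. With 50 kb flanks Krt1 had 0.32, Krt10 0.29, Krt18 -0.04, Krt25 0.33, Krt7 0.02 and Krt8 0.02. With the strongest peaks Krt1 had 0.07. With 1 library left out Krt5 ranged from -0.41 to 0.42, Krt1 from -0.16 to 0.06 and Krt8 from -0.15 to 0.02. The other 252 of 266 values of named genes kept their sign. The cause of these changes was not tested.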
